A study of Homo sapiens with 6 samples.

Results

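The genes described here are 10 negative regulators and nutrient sensors of mTORC1, the protein kinase complex that couples amino acids, energy and growth signals to protein and lipid synthesis. They were taken by symbol (SESN1, SESN2, SESN3, CASTOR1, DDIT4, DEPTOR, TSC1, TSC2, DEPDC5 and RRAGD) and are 10 of the 37822 genes in the deposited count table. Of the 10, 9 passed a filter on low counts and were among the 14253 genes tested, and CASTOR1 did not. The study compared 3 libraries of VPS72-overexpressing Huh7 cells with 3 libraries of FLAG control Huh7 cells labelled WT. Both groups were grown in DMEM with 10% fetal bovine serum and infected for 24 h with lentivirus packaged in HEK293T cells, and neither label states a drug, a nutrient change or a starvation step. Huh7 is a human hepatocellular carcinoma line, and VPS72 is a subunit of chromatin complexes that handle the histone variant H2A.Z. The series names ATF3, mTORC1 and SREBP1 as its pathway of interest, so the question asked of these genes was whether the mRNAs of the mTORC1 brakes differed between the groups. Only mRNA was measured, and mTORC1 activity was not.

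Amino acids reach mTORC1 through the Rag GTPases on the lysosome. GATOR1, made of DEPDC5, NPRL2 and NPRL3, switches the Rags off, and GATOR2 opposes GATOR1. Sestrins and CASTOR proteins bind GATOR2 when leucine or arginine is scarce and so keep GATOR1 active. A parallel brake, the TSC1 and TSC2 complex, turns off RHEB, the small GTPase that activates mTORC1, and DDIT4 (REDD1) acts through it under hypoxia, glucocorticoids or stress. DEPTOR binds the kinase complex itself. SESN2 and DDIT4 are transcribed under stress by ATF4, SESN1 is induced by DNA damage, SESN3 is a FOXO target, and RRAGD a target of the TFEB family of lysosomal regulators.

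No member passed the adjusted threshold, with 0 of 9 tested members called. Of the 14253 tested genes 88 were called (0.617%, with 0.421% higher and 0.196% lower), a share at which 9 genes would seldom hold a call. Calls used the edgeR quasi-likelihood test with Benjamini-Hochberg adjustment over all tested genes and a threshold of 0.05. At an unadjusted p under 0.05, 2 members were lower and 0 higher, where 11.5% of all tested genes passed in either direction and 5.51% passed as lower. That count was 1 in 9 of 15 alternatives, and 3 without FLAG replicate 3, where SESN1 was added as higher (unadjusted p = 0.0443, edgeR across all genes). With DESeq2 the count of members past the adjusted threshold was 1, SESN2, and with limma-voom it was 0. DESeq2 gave no adjusted p for SESN1, DDIT4, DEPTOR and DEPDC5. The member furthest from its spread was SESN2, the leucine sensor, which averaged 40.4 ± 2.53 CPM (counts scaled to library size) in VPS72 libraries and 48.1 ± 2.45 CPM in FLAG libraries (SD, n = 3 each), a difference of -16.1%. In 8 of 9 tested members the 95% interval of the fold change lay within 1.5-fold in either direction, the exception being DEPTOR, which had few counts.

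Total counts ran from 23969324 to 29091824 in VPS72 libraries and from 21345279 to 25352335 in FLAG libraries. VPS72 itself had 1161 ± 11.5 CPM in VPS72 libraries and 24.0 ± 2.70 CPM in FLAG libraries, in the direction of the labels. All 7 hepatocyte markers checked were tested, with summed levels of 11436 to 11739 CPM in VPS72 libraries and 10000 to 10285 CPM in FLAG libraries. Of the 7, 5 were called higher, where 0.421% of all tested genes were. APOA1 and HNF4A did not pass but also lay higher in every VPS72 library. Of 7 HEK293T markers, the packaging cell of the virus, NEFL had 0 counts in all libraries and the summed level, nearly all LIN28B, was 430 to 439 CPM in VPS72 libraries and 425 to 452 CPM in FLAG libraries. Of 5 fibroblast, 5 immune and 4 endothelial markers, none of those with enough counts to test passed the adjusted threshold. LYZ, an immune marker, was higher in every VPS72 library (adjusted p = 0.371, edgeR with Benjamini-Hochberg), as were 8.76% of all tested genes. The groups overlapped for the other tested ones. Their summed levels were 10.1 to 10.6, 13.6 to 14.4 and 4.13 to 4.94 CPM in VPS72 libraries, against 9.91 to 11.3, 10.8 to 12.5 and 2.79 to 4.55 CPM in FLAG libraries. The part that any of these markers had in the values of the members was not tested.

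**Figure D1:**
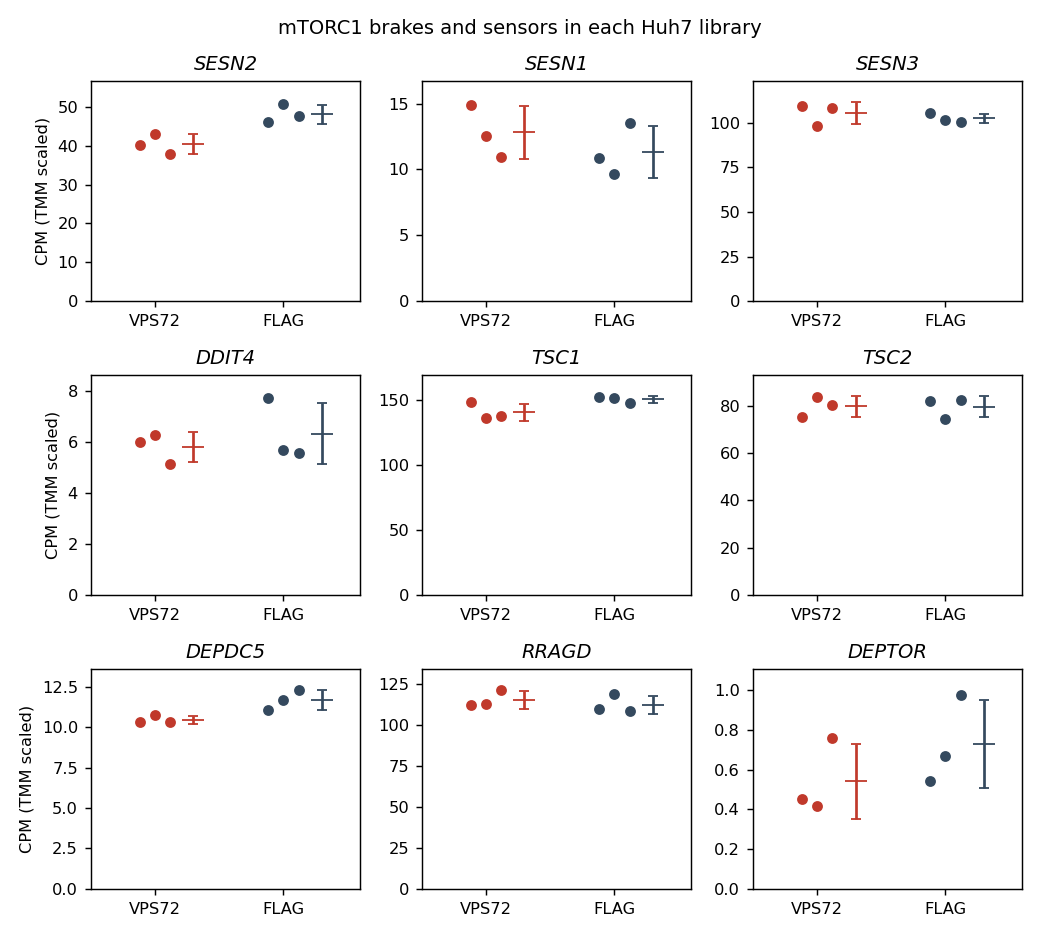
Expression of the 9 tested members in each library, in CPM on linear axes from 0. Points are libraries (VPS72 red, FLAG dark), and the bar beside them is the mean ± SD (n = 3). For SESN2 and DEPDC5 all VPS72 points lie below all FLAG points, and for the other 7 members the groups overlap.

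SESN2 and DEPDC5 were the 2 tested members whose libraries did not overlap between the groups, both lower with VPS72. Of all tested genes 8.47% showed no overlap in this direction, 8.76% in the other and 17.2% in either. The 250 bases before their annotated starts are shown because promoter motifs bear on which transcription factors could act on them. Sequences are RefSeq's (GRCh38.p14), both on the plus strand, SESN2 at chr1:28259268-28259517 and DEPDC5 at chr22:31753718-31753967, with CCAAT boxes (CCAAT on either strand) in capitals.
SESN2: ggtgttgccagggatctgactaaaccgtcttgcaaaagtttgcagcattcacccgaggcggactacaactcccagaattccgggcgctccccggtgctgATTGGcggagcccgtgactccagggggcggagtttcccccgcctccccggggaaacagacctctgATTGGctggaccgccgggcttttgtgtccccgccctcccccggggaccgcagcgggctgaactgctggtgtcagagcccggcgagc
DEPDC5: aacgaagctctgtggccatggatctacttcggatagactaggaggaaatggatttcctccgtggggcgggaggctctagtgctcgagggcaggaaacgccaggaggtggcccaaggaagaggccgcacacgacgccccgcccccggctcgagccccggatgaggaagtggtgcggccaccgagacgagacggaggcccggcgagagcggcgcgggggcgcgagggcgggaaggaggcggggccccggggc

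The SESN2 window held 2 CCAAT boxes, both on the minus strand, whose nearest bases lie 147 and 82 bases before the start. DDIT4 also held 2, nearest bases 104 and 71 bases before the start. The DEPDC5 window held none of the 5 motifs searched. Promoter entries were found for 8 of the 10 members, 13 entries in all, and 5 of the 13 held a CCAAT box, against 32% of all 35116 windows of the same length.

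The other 4 motifs, each searched on both strands, were the C/EBP-ATF composite site that ATF4 binds (TGATGNAA, 3.14% of all windows), the CRE bound by ATF and CREB proteins (TGACGTCA, 1.65%), the AP-1 site (TGANTCA, 6.57%) and the E-box (CACGTG, 6.34%). No window of a member held the CRE or the AP-1 letters. The composite site was in 1 of the 13, that of TSC2. It is shown as the only such site found, with the composite site in capitals, on the plus strand at chr16:2047864-2047893 (GRCh38.p14). Whether any motif bears on the level of a member was not tested.
TSC2: gccccgtcacgTGATGCAAggatcgccggc
The E-box of the same window, its only one, overlaps the upstream end of the composite site by 2 bases. A match is a description of letters, not of binding.

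The sestrins sense amino acids and stress upstream of GATOR2. SESN2, the best characterised leucine sensor of the family, had 40.1, 43.0 and 38.0 CPM in VPS72 replicates 1 to 3, against 46.0, 50.8 and 47.5 CPM in FLAG replicates 1 to 3. Every VPS72 library lay below every FLAG library. The log2 fold change was -0.25 ± 0.07 (SE), with a 95% interval of -24.0% to -7.45%, an unadjusted p of 0.00167 and an adjusted p of 0.11 over all tested genes (edgeR with Benjamini-Hochberg). By unadjusted p it ranked 215th of the 14253 genes. In bulk libraries, a lower level in every cell and a lower level in a share of the cells cannot be told apart.

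Across 15 alternatives the log2 fold change ran from -0.30 to -0.21, and the adjusted p from 0.0392 to 0.28. It passed in 2 of them, with DESeq2's Wald test (adjusted p = 0.0404) and in edgeR without a filter on low counts (adjusted p = 0.0392). The within-group coefficient of variation of SESN2 was 6.26% in VPS72 libraries and 5.09% in FLAG libraries, where counting error alone at 899 to 1295 counts per library gives 3.07% in VPS72 and 2.93% in FLAG libraries.

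SESN1, the sestrin known best for its induction by DNA damage, had 14.9, 12.6 and 10.9 CPM in VPS72 libraries, against 10.8, 9.69 and 13.5 CPM in FLAG libraries. The groups overlapped, with VPS72 replicate 1 the highest of the 6 and FLAG replicate 2 the lowest. SESN1 had a log2 fold change of 0.18 ± 0.14, with a 95% interval of -8.17% to 40.1% (adjusted p = 0.69, edgeR with Benjamini-Hochberg). It was 0.06 without VPS72 replicate 1 and 0.32 without FLAG replicate 3. Its spread within groups, 15.6% in VPS72 and 17.4% in FLAG libraries, was wide against a counting error of 5.42% in VPS72 and 6.06% in FLAG libraries. SESN1 shares part of its locus with ARMC2 in the RefSeq annotation, and ARMC2 held 38 to 75 counts in VPS72 libraries and 57 to 77 in FLAG libraries. The sources used here give no strand setting for the counting.

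SESN3, induced by FOXO factors, had 109, 98.3 and 108 CPM in VPS72 libraries, against 105, 101 and 101 CPM in FLAG libraries. VPS72 libraries held both the highest and the lowest values, and the log2 fold change was 0.04 ± 0.05 (95% interval -4.41% to 10.5%; adjusted p = 0.831, edgeR with Benjamini-Hochberg). Among the 3 sestrins the fold change was negative for SESN2 and positive for SESN1 and SESN3, and the difference between them was not tested.

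CASTOR1, the arginine sensor of this pathway, was close to undetected. It had 2, 0 and 1 counts in VPS72 replicates 1 to 3 and 2, 3 and 0 counts in FLAG replicates 1 to 3, so no fold change is given. The libraries at 0 counts allow up to 0.114 CPM in VPS72 replicate 2 and 0.14 CPM in FLAG replicate 3 (3 counts, counting error only). Its paralog CASTOR2, which can pair with CASTOR1, was abundant, at 201, 206 and 187 CPM in VPS72 libraries and 171, 177 and 190 CPM in FLAG libraries. CASTOR2 did not pass, with a log2 fold change of 0.14 ± 0.05 (adjusted p = 0.25, edgeR with Benjamini-Hochberg), and FLAG replicate 3 lay above VPS72 replicate 3. A further copy, listed as CASTOR3, had 160 to 242 counts in VPS72 libraries and 156 to 163 in FLAG libraries. Counts of CASTOR2 and CASTOR3 are uncertain because an estimating counter divides reads between near-identical copies.

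DEPDC5 is a subunit of GATOR1, which turns the Rag GTPases off when amino acids are low. It had 10.3, 10.8 and 10.3 CPM in VPS72 libraries, against 11.1, 11.7 and 12.3 CPM in FLAG libraries. All VPS72 libraries were below all FLAG libraries, but at 244 to 297 counts a library the fold change had a wide error. Its log2 fold change was -0.16 ± 0.11, with a 95% interval of -23.9% to 5.8% (adjusted p = 0.652, edgeR with Benjamini-Hochberg). In all 15 alternatives DEPDC5 was lower with VPS72 and in none did it pass, though DESeq2's Wald test gave it no adjusted p.

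RRAGD encodes a Rag GTPase that pairs with RagA or RagB and is raised by TFEB-family factors. It had 112, 112 and 121 CPM in VPS72 libraries, against 109, 119 and 108 CPM in FLAG libraries, with overlap between the groups. RRAGD had a log2 fold change of 0.04 ± 0.05 (95% interval -4.56% to 10.5%; adjusted p = 0.841, edgeR with Benjamini-Hochberg). The other Rag genes did not pass either. RRAGA had a log2 fold change of 0.14 ± 0.07, RRAGB of -0.34 ± 0.18 and RRAGC of -0.05 ± 0.07. RRAGA lay higher and RRAGB lower in 3 of 3 VPS72 libraries, RRAGB on 91 to 129 counts in VPS72 libraries and 98 to 141 in FLAG libraries.

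DDIT4 (REDD1) frees the TSC complex to act and answers stress within hours. It had 6.01, 6.29 and 5.15 CPM in VPS72 libraries, against 7.72, 5.69 and 5.58 CPM in FLAG libraries. FLAG replicate 1 stood above the other 5 libraries, which overlapped. The log2 fold change of -0.12 ± 0.17 (95% interval -28.4% to 17.9%; adjusted p = 0.856, edgeR with Benjamini-Hochberg) turned to 0.05 without FLAG replicate 1.

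TSC1, which stabilises TSC2 in the TSC complex, had 148, 136 and 138 CPM in VPS72 libraries, against 152, 151 and 147 CPM in FLAG libraries. The groups overlapped only in that VPS72 replicate 1 lay above FLAG replicate 3. TSC1 had a log2 fold change of -0.10 ± 0.04, with a 95% interval of -12.3% to -0.141%. It had an unadjusted p of 0.0458 and did not pass after adjustment (adjusted p = 0.422 by edgeR with Benjamini-Hochberg, and 0.242 to 0.743 in the alternatives).

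TSC2, the GTPase-activating subunit that acts on RHEB, had 75.0, 83.8 and 80.1 CPM in VPS72 libraries, against 81.8, 74.4 and 82.4 CPM in FLAG libraries. The log2 fold change was 0.00 ± 0.06 (95% interval -7.69% to 8.63%; adjusted p = 0.995, edgeR with Benjamini-Hochberg), and its sign turned in 6 of 15 alternatives. TSC2 overlaps PKD1 in the RefSeq annotation, and PKD1 had 44.2 ± 9.61 CPM in VPS72 libraries and 47.0 ± 9.73 CPM in FLAG libraries (log2 fold change -0.09 ± 0.14), a wider spread than that of TSC2.

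DEPTOR, the inhibitor that binds mTOR directly, was near the limit of detection. It had 13, 11 and 18 counts in VPS72 libraries and 14, 17 and 21 counts in FLAG libraries, or 0.54 ± 0.19 CPM in VPS72 and 0.73 ± 0.22 CPM in FLAG libraries. DEPTOR had a log2 fold change of -0.42 ± 0.47, and its 95% interval of -62.9% to 49.5% spans both signs (adjusted p = 0.805, edgeR with Benjamini-Hochberg). Counting error alone gives a coefficient of variation of 26.7% in VPS72 libraries and 24.0% in FLAG libraries, and the measured values were 34.8% in VPS72 and 30.5% in FLAG libraries.

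**Figure D2:**
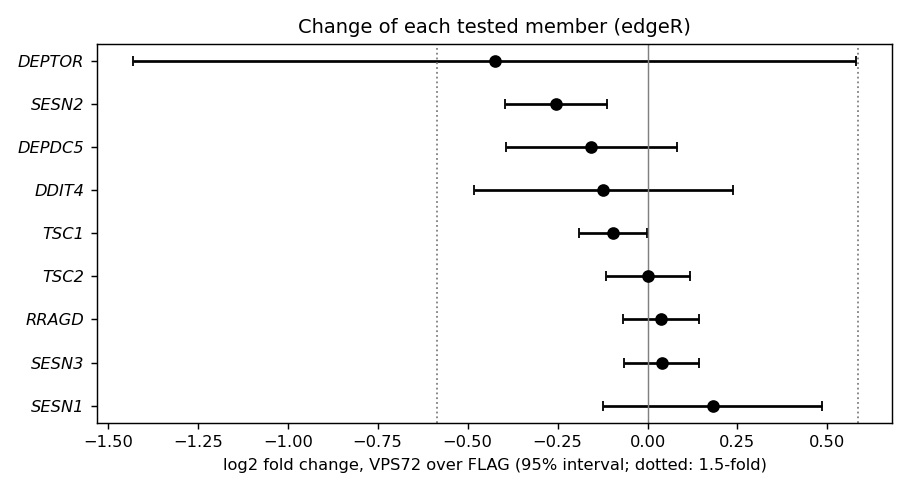
log2 fold change of each tested member, VPS72 over FLAG, with its 95% interval from edgeR's quasi-likelihood fit. Dotted lines mark 1.5-fold. The interval of SESN2 (-24.0% to -7.45%) lies below 0, that of TSC1 ends just below 0 (-0.141%), and the interval of DEPTOR alone passes a dotted line, the lower one.

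Levels of different genes were compared per length, as CPM per kilobase of the principal protein-coding transcript of GENCODE release 29. In VPS72 libraries the order was RRAGD (23.5 ± 1.08), TSC1 (16.3 ± 0.75), TSC2 (12.9 ± 0.71), SESN2 (11.7 ± 0.73), SESN3 (11.02 ± 0.64), SESN1 (3.65 ± 0.57), DDIT4 (3.33 ± 0.34), DEPDC5 (1.61 ± 0.04), DEPTOR (0.21 ± 0.07) and CASTOR1 (0.023 ± 0.022). In FLAG libraries it was RRAGD (22.9 ± 1.15), TSC1 (17.4 ± 0.30), SESN2 (13.9 ± 0.71), TSC2 (12.9 ± 0.72), SESN3 (10.7 ± 0.27), DDIT4 (3.62 ± 0.69), SESN1 (3.24 ± 0.56), DEPDC5 (1.80 ± 0.09), DEPTOR (0.28 ± 0.09) and CASTOR1 (0.040 ± 0.037). The libraries of neighbouring genes overlapped for TSC2 and SESN2, for SESN2 and SESN3 and for SESN1 and DDIT4 in the VPS72 group, and for SESN2 and TSC2 and for DDIT4 and SESN1 in the FLAG group. All other neighbours were apart.

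These per-length levels depend on the transcript assumed. SESN3 in FLAG libraries was 10.7 CPM per kilobase over its 9558-base principal transcript and 72.8 over its shortest annotated one of 1408 bases, so its place among the sestrins is uncertain, as are those of TSC1 (17.4 or 87.5) and DEPDC5 (1.80 or 9.13). Among the Rag genes, RRAGD was at 23.5 ± 1.08 CPM per kilobase in VPS72 and 22.9 ± 1.15 in FLAG libraries. RRAGC was at 14.0 ± 0.54 in VPS72 and 14.5 ± 0.97 in FLAG libraries, RRAGA at 19.6 ± 0.70 in VPS72 and 17.8 ± 0.52 in FLAG libraries, and RRAGB at 2.51 ± 0.33 in VPS72 and 3.18 ± 0.30 in FLAG libraries. Within GATOR1, DEPDC5 was lower than its partners over the principal transcripts. NPRL3 was at 11.9 ± 0.83 in VPS72 and 12.4 ± 1.22 in FLAG libraries, and NPRL2 at 8.07 ± 0.69 in VPS72 and 8.22 ± 0.34 in FLAG libraries.

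The lists of the rest of the pathway held 0 calls, where 0.617% of all tested genes were called. At that share, lists this short would seldom hold a call. Of 11 tested GATOR1, GATOR2 and KICSTOR genes other than DEPDC5, 0 passed, with a median log2 fold change of -0.02 (-0.05 to 0.04 with a library left out) where the median of all tested genes was -0.00. Among them, MIOS and SEC13, both subunits of GATOR2, had log2 fold changes of -0.12 ± 0.06 and 0.08 ± 0.05. Of 15 Rag, Ragulator, folliculin-complex and other sensor genes, 0 passed, with a median of -0.01 (-0.03 to 0.03 with a library left out).

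In that list LARS1, the cytosolic leucyl-tRNA synthetase that also signals leucine to the Rags, came closest. It had 126, 116 and 120 CPM in VPS72 libraries, against 136, 137 and 140 CPM in FLAG libraries, with no overlap. The log2 fold change was -0.19 ± 0.04 and the adjusted p 0.0586 by edgeR's quasi-likelihood test (0.00702 to 0.237 in the alternatives). The call was made with limma-voom (0.0474), library size alone (0.033), no filter on low counts (0.0131) and DESeq2 (0.00702). FNIP2, a partner of folliculin, did not pass (log2 fold change -0.13 ± 0.05).

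Of 8 genes of the mTORC1 core and the RHEB relay, 0 passed, with a median of 0.01 that was -0.02 with library size alone and ran from -0.01 to 0.07 with a library left out. RHEB, the direct activator of mTORC1, had a log2 fold change of 0.09 ± 0.04, AKT1S1 (PRAS40, an inhibitory subunit) of -0.18 ± 0.09 and MTOR of 0.06 ± 0.04. Of 7 tested genes of the AMPK kinases and related brakes, 0 passed, with a median of -0.02. PRKAB1 (-0.18 ± 0.06) and PRKAG1 (-0.20 ± 0.08), regulatory subunits of AMPK, and GSK3B (0.03 ± 0.04), a kinase that phosphorylates TSC2, had the smallest unadjusted p. DDIT4L, the paralog of DDIT4, had too few counts to test.

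**Figure D3:**
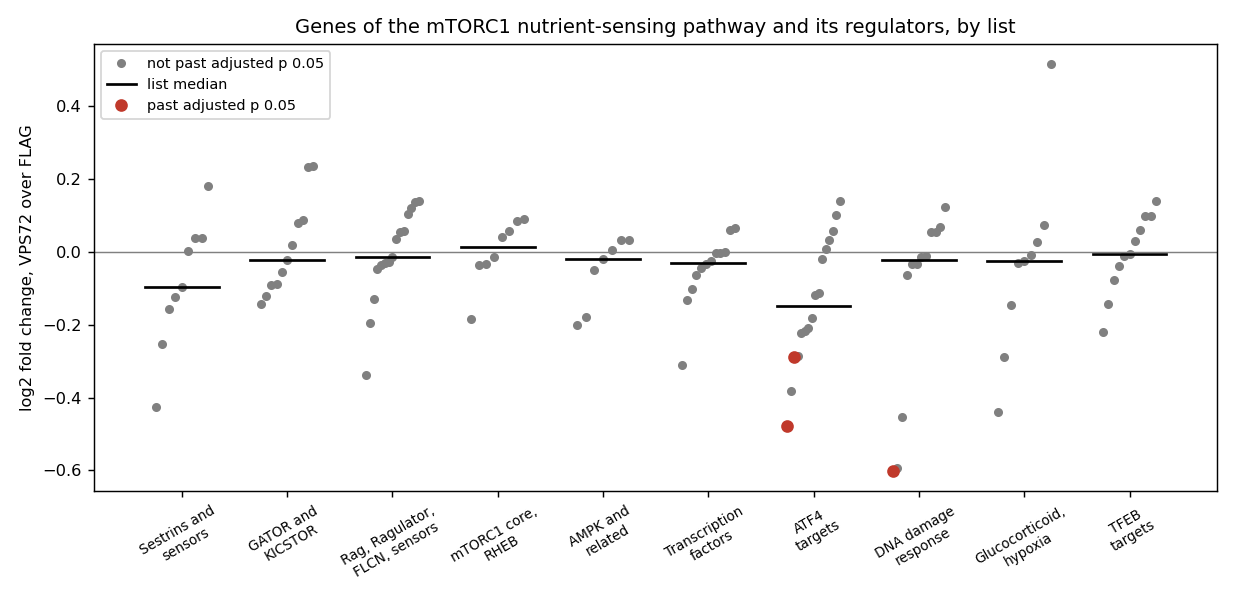
log2 fold change (VPS72 over FLAG) of every tested gene of 10 lists, 1 point per gene, with the list median as a bar. Red points passed an adjusted p of 0.05. The red points are 2 ATF4 targets and 1 gene of the DNA damage response list, which was made of p53 targets. The 9 points of the sestrins and sensors are all grey.

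The transcription factors known to act on these promoters differed little at the mRNA level. Of 12 tested, 0 passed, 2 had a positive and 10 a negative log2 fold change, and the median was -0.03, where 48.8% of all tested genes were positive. DDIT3 (CHOP), which ATF4 induces, had 10.0 ± 0.30 CPM in VPS72 libraries and 12.4 ± 1.26 CPM in FLAG libraries (-0.31 ± 0.12; adjusted p = 0.301, edgeR with Benjamini-Hochberg). EPAS1 (HIF-2 alpha) had a log2 fold change of 0.06 ± 0.03 and TFE3, which acts on RRAGD, of -0.10 ± 0.05. ATF4 itself was at -0.03 ± 0.05 and FOXO3 at -0.03 ± 0.05. ATF3, the factor the series names, fell with a log2 fold change of -0.85 ± 0.09 (adjusted p = 0.000362, edgeR with Benjamini-Hochberg).

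SESN2 and DDIT4 belong to the ATF4 program, so the other genes of that program are given beside them. Of 16 tested ATF4 targets other than members, 2 fell, 0 rose and 14 did not pass, where 0.196% of all tested genes were called lower. The list median was -0.15, and -0.14 to -0.11 with a library left out. Of the 16 fold changes 5 were positive and 11 negative, where 48.8% of all tested genes were positive. At an unadjusted p under 0.05, 6 targets were lower and 0 higher, where 5.51% of all tested genes were lower. The list was chosen with earlier results of these data known, so these counts are no separate result. SLC7A11, the cystine transporter, was at 42.0, 43.5 and 44.8 CPM in VPS72 libraries, against 60.2, 61.1 and 60.2 CPM in FLAG libraries (log2 fold change -0.48 ± 0.05; adjusted p = 0.000542, edgeR with Benjamini-Hochberg). PPP1R15A (GADD34), the phosphatase subunit that ends the integrated stress response, fell to 105, 115 and 117 CPM in VPS72 libraries, against 139, 137 and 136 CPM in FLAG libraries. Its log2 fold change was -0.29 ± 0.05 (adjusted p = 0.00868, edgeR with Benjamini-Hochberg), and the call was lost without VPS72 replicate 1 (0.059) and without FLAG replicate 1 (0.088).

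CEBPG, a bZIP partner of ATF4, did not pass at a log2 fold change of -0.22 ± 0.06 (adjusted p = 0.149, edgeR with Benjamini-Hochberg). The SESN2 fold change of -0.25 lay between those of PPP1R15A and CEBPG, and differences among the 3 were not tested. SLC3A2, the heavy chain that SLC7A11 needs (-0.21 ± 0.07), XPOT, a tRNA exporter (-0.11 ± 0.04), and CEBPB, a bZIP factor (-0.22 ± 0.10), also lay at an unadjusted p under 0.05 and did not pass after adjustment. TRIB3 (-0.02 ± 0.05) and ASNS (-0.29 ± 0.35) missed both thresholds.

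**Figure D4:**
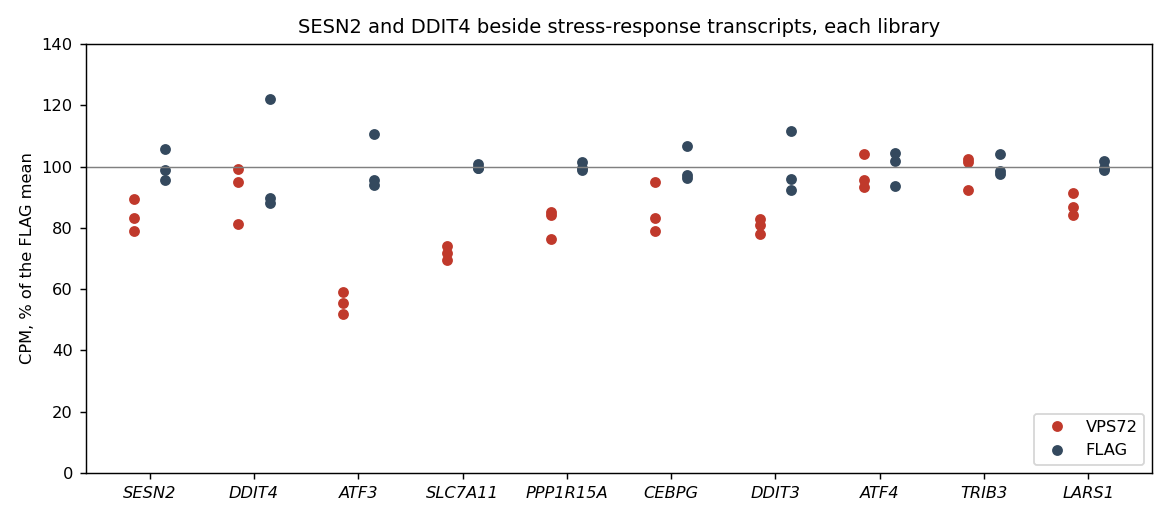
CPM of SESN2, DDIT4 and 8 other transcripts in each library as a percentage of that gene's FLAG mean (VPS72 red, FLAG dark; 3 points each). ATF3, SLC7A11, PPP1R15A, CEBPG, DDIT3, LARS1 and SESN2 show no overlap between the groups, while DDIT4, ATF4 and TRIB3 do overlap. SLC7A11, PPP1R15A, CEBPG, DDIT3 and LARS1 were picked for their small unadjusted p in these libraries, so their lack of overlap is no separate result. Of the 16 tested ATF4 targets 5 were lower without overlap, as were 8.47% of all tested genes. ATF4 and TRIB3 were added after their values were seen.

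The DNA damage response list was made of targets of the transcription factor p53. Of its 12 tested genes other than members, 1 fell, 0 rose and 11 did not pass, where 0.196% of all tested genes were called lower. The list median was -0.02. GADD45A, a growth arrest gene that ATF4 also induces, fell to 22.2 ± 2.61 CPM in VPS72 libraries, against 33.7 ± 4.07 CPM in FLAG libraries (-0.60 ± 0.10; adjusted p = 0.0112, edgeR with Benjamini-Hochberg). That call was lost without VPS72 replicate 1 (0.064), FLAG replicate 1 (0.115) or FLAG replicate 3 (0.0636). BBC3 (PUMA), a trigger of apoptosis, did not pass (log2 fold change -0.59 ± 0.26). TP53INP1 went the other way and did not pass either (0.12 ± 0.06), with every VPS72 library above every FLAG library. The list had both signs, with 4 positive and 8 negative fold changes, and 1 higher and 2 lower genes at an unadjusted p under 0.05. Of all tested genes 5.51% were lower at that p and 11.5% passed in either direction.

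Neither of the last 2 regulator lists held a call. Of 9 tested glucocorticoid and hypoxia targets other than DDIT4, 0 passed, with a median of -0.03. PER1, a clock gene induced by glucocorticoids, had a log2 fold change of -0.44 ± 0.15, TSC22D3 (GILZ) of -0.29 ± 0.15 and ADM, a hypoxia target, of -0.15 ± 0.09. Of 11 TFEB-family targets other than RRAGD, 0 passed, with a median of -0.01. GLA (0.14 ± 0.06), UVRAG (-0.14 ± 0.08) and LAMP1 (0.06 ± 0.03) had the smallest unadjusted p.

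The genes whose levels followed SESN2 most closely over the 6 libraries, by Pearson r of log2 CPM among 10415 genes with a mean of at least 5 CPM, were EPG5 (r = 0.994), JAK1 (0.992) and ABLIM3 (0.989). EPG5, an autophagosome tethering factor, had a log2 fold change of -0.16 ± 0.05, JAK1, a cytokine receptor kinase, of -0.04 ± 0.03 and ABLIM3, an actin-binding protein, of -0.24 ± 0.07, and none of the 3 passed. The 6 points share their groups, libraries and scaling, and 41 genes had an r above 0.95, so these values describe likeness in these libraries only.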

How the data were processed

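The authors deposited estimated counts per gene symbol as whole numbers, not normalized, in 1 table of 6 libraries. STAR, RSEM, limma and the builds hg19 and hg38 appear in the submitters' processing notes, with no role or order, so the sources used here do not settle the build, annotation, versions or strand setting. Per the labels, RNA came from RNAzol extraction and libraries from the KAPA RNA HyperPrep kit.

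Genes were filtered with filterByExpr (minimum count 10, minimum total 15), libraries scaled with TMM, and the groups compared with the quasi-likelihood test of edgeR (version 4.0.16; limma 3.58.1, DESeq2 1.42.0, R 4.3.3) with Benjamini-Hochberg adjustment over 14253 genes and a threshold of 0.05. CPM use the TMM-scaled library size. The SE is the size of the log2 fold change divided by the square root of F, and 95% intervals use the t distribution. The code was tested on simulated counts. The common coefficient of variation was 7.24%. Libraries of a group differed by more than sampling noise (chi-square over its degrees of freedom 4.7 to 7.69). No label states that the replicates were separate cultures. The p-values therefore reflect just the spread among these libraries, possibly technical. The smallest p of an exact permutation test of 3 against 3 would be 0.1.

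The members and lists were chosen with earlier results of these data known. Lists held 115 genes, 2 of them found under an older symbol (KICS2 as C12orf66 and SAMTOR as BMT2). Beyond the members, VPS72 and ATF3, the genes named are those past the threshold and up to 3 per list with the smallest unadjusted p, plus the 3 genes most like the leading member. RRAGA, RRAGB, RRAGC, NPRL2, NPRL3, ATF4, FOXO3, TRIB3, ASNS, SLC3A2, XPOT, CEBPB, PKD1, ARMC2 and CASTOR3 were named after their values were seen. Some genes that this rule selects are not reported here.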

Additional observations from a re-analysis of the deposited data

How the results depend on the processing

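The alternatives were other scalings, filters and tests, the replicate number as a block, removal of the abundance trend and each library left out in turn. SESN2, SESN3, SESN1, TSC1, DEPDC5 and RRAGD kept their direction in all 15 alternatives and DEPTOR in all 14 that tested it, but with a library left out SESN1 ran from 0.06 to 0.32, SESN3 from 0.02 to 0.09, DEPTOR from -0.73 to -0.17 and RRAGD from 0.00 to 0.08. TSC2, near 0, turned to -0.0295 with library size only, -0.00284 with upper quartile scaling and -0.00898 with the abundance trend removed, and ran from -0.0432 (without FLAG replicate 2) to 0.0493 with a library left out. DDIT4 ran from -0.202 to 0.0482 with a library left out, turning only without FLAG replicate 1, and the median of the tested members, -0.10 with all libraries, was then 0.02. With a library left out, the median turned sign in 7 of the 10 lists, and kept it for the transcription factors, the ATF4 targets and the DNA damage response genes. The cause was not tested. The number of members past the threshold was 0 except for 1, SESN2, without a filter and 1, again SESN2, with DESeq2. Across all genes the count was 88 (60 higher, 28 lower), 264 without a filter, 242 with DESeq2, 54 with the abundance trend removed, 32 at a threshold of 0.01 and 25 to 100 with a library left out. The split was 32 higher and 54 lower with library size only, 44 higher and 32 lower with upper quartile scaling, and 27 in each direction with the abundance trend removed. With the replicate block 32 genes and 0 members passed. After removal of group means, same-numbered libraries of the 2 groups correlated at -0.05, 0.03 and 0.06. Differently numbered ones ran from -0.105 to 0.0793, and whether the numbers mark a shared batch was not tested. CASTOR1 had too few counts to test, and DEPTOR had few counts and a wide interval.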
